A study of Mus musculus with 2 samples.

Results

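The genes described here are those encoded by the mitochondrial genome itself. They were taken as every row whose name starts with mt- in the raw tables of unique molecular identifiers (UMIs, 1 per captured transcript) of a mouse brain study, and they make up 28 of the 29809 genes with a row. All cell barcodes with at least 300 detected genes were used, with no limit on their mitochondrial share, which gave 2405 of 2800 barcodes in the wild type table and 1501 of 1800 in the other. The mitochondrial annotation holds 37 genes, of which 13 encode proteins, 2 ribosomal RNAs and 22 transfer RNAs. Rows were found for 10, 2 and 16 of these. All 28 were listed for wild type and 26 for the other library.

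The study measured single cells of the dissected arcuate nucleus and median eminence, the part of the hypothalamus that senses hormones and controls feeding, by Drop-seq, which tags the 3′ ends of RNA on barcoded beads in droplets. One library (WT) pooled 7 wild type mice, and the other (Irx3/5dHet, genotype given as Irx3/5+/-) pooled 5 mice heterozygous for the transcription factor genes Irx3 and Irx5. All mice were CD-1, aged 7 to 8 weeks, and sorted live cells were loaded. Each genotype is therefore 1 sample, nothing ties a cell to a mouse, and no difference between the libraries has a replicate check. Genotype cannot be told apart from anything else that differs between the pools, their dissociation or their library preparation. Intervals below are exact 95% intervals and cover counting error only.

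Mitochondria keep a small circular genome. Its protein genes encode core subunits of the respiratory chain (complex I, complex III and cytochrome c oxidase) and of the ATP synthase. Both strands are transcribed as long precursors, which are cut mostly at the transfer RNAs that lie between the other genes. The ribosomal RNAs and most messenger RNAs then receive short 3′ tails of adenosines. Such tails are what the beads capture. The mitochondrial share of a cell's UMIs is often used as a mark of cell quality, while it also differs between healthy cell types.

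After the filter the WT library held 4282490 UMIs with a median of 1274 per cell and the Irx3/5dHet library 2874094 with a median of 1142. Only 3 barcode sequences occurred in both libraries. Irx3 had 31 UMIs in WT and 15 in Irx3/5dHet, at 7.24 (4.92 to 10.3) and 5.22 (2.92 to 8.61) CPM, which is a gene's UMIs scaled to 1000000 UMIs of its library, and Irx5 had 16 and 6 UMIs, at 3.74 (2.14 to 6.07) and 2.09 (0.766 to 4.54) CPM. The intervals overlap for both genes, so the check of the genotype labels is weak. The cells formed 19 clusters, which were named by marker genes and are called "like" a cell type. Cluster 2 passed tanycyte markers but had more astrocyte markers among its leading genes and stays unnamed.

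Summed over all cells, the mitochondrial share of UMIs was close in the libraries, while its make-up differed. The share was 1.98% (1.96 to 1.99) in WT and 1.91% (1.89 to 1.93) in Irx3/5dHet, a log2 ratio of Irx3/5dHet over WT of -0.05. The sign of this small ratio changed with the way cells and libraries were weighted, so no direction is read from it. Protein genes made up 61.0% of mitochondrial UMIs in WT and 73.8% in Irx3/5dHet. Ribosomal RNAs made up 37.4% and 25.6%, and transfer RNAs 1.63% and 0.650%. As shares of all UMIs, protein genes were higher in Irx3/5dHet (log2 ratio 0.23, 0.21 to 0.25), ribosomal RNAs were lower (-0.60, -0.62 to -0.57) and transfer RNAs were lower (-1.37, -1.55 to -1.20). These sums mix cell types in unequal parts, since neuron-like cells, which are low in mitochondrial ribosomal RNA, were 34.1% of WT and 48.1% of Irx3/5dHet cells. In the 4 classes that held over 100 cells of both libraries, the ratio of ribosomal RNAs was nearer to 0, and in tanycyte-like cells (82 WT and 51 Irx3/5dHet) it was farther from it, at -0.99. In those 4 classes it was -0.46 in neuron-like, -0.44 in ependymal-like, -0.19 in fibroblast-like and -0.08 (-0.19 to 0.03) in oligodendrocyte-like cells.

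**Figure D1:**
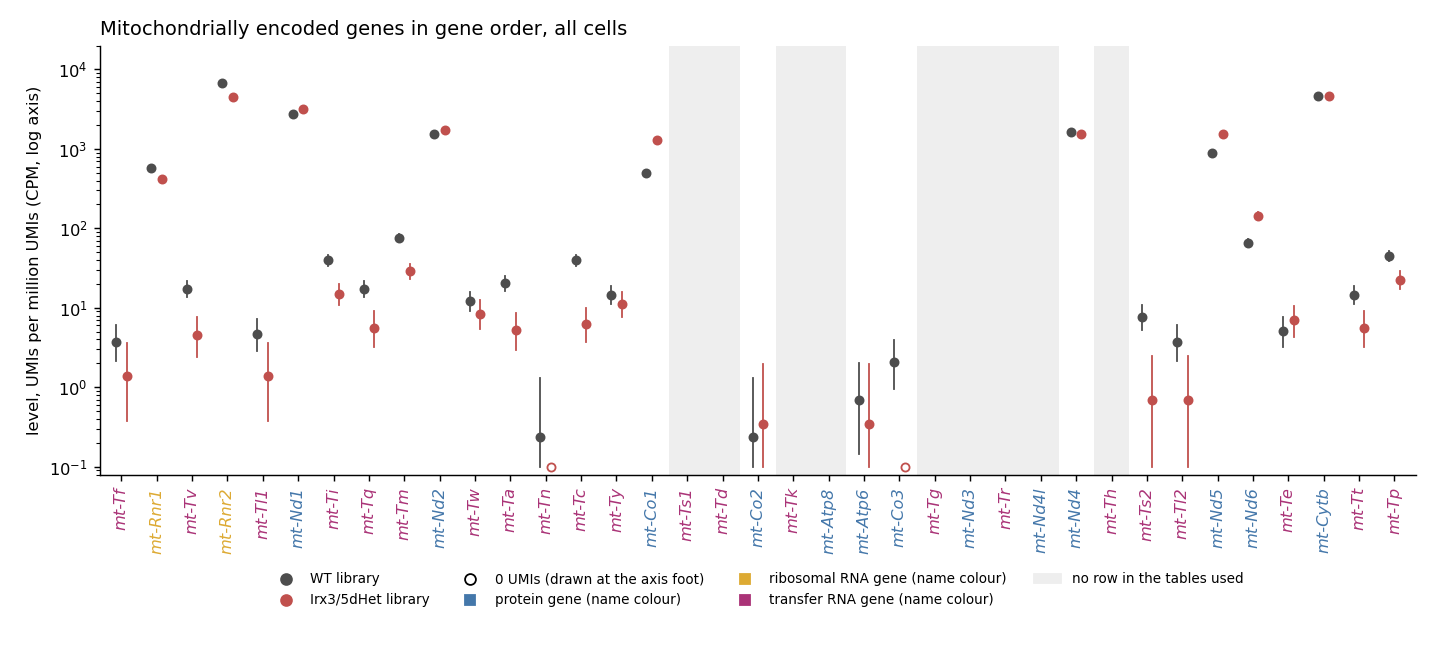
Level of each mitochondrially encoded gene in the WT and Irx3/5dHet libraries, in CPM on a log axis, with genes in their order along the mitochondrial genome. Points are pooled levels over all cells with exact 95% Poisson intervals, cut off at the foot of the axis; open circles are 0 UMIs and grey bands genes with no row. The stretch from mt-Ts1 to mt-Nd4l holds only genes with no row or under 10 UMIs, and mt-Co1 stands out among the protein genes by the distance between its points.

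Of the 28 genes, 24 had at least 10 UMIs over both libraries, made up of 7 protein, 2 ribosomal RNA and 15 transfer RNA genes. Of these 24, 7 were higher and 17 lower in Irx3/5dHet. A log2 ratio of at least 0.5 upward was reached by 3 of the 24, beside 12.7% of all 18978 genes with at least 10 UMIs, and one of at least 0.5 downward by 14, beside 26.0%. The median log2 ratio of the 24 was -0.79, beside -0.08 over all genes, and it follows the 15 transfer RNA genes, which are most of the members by number but few of the UMIs. In neuron-like cells outside a low-depth cluster described further on, 21 members had at least 10 UMIs, of which 8 were higher and 13 lower. There 3 reached 0.5 upward, beside 12.4% of 15063 genes, and 8 downward, beside 23.0%. With the libraries scaled by size factors or by TMM factors, the same counts of 7 and 17 were found.

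The genes of complex III and complex I carried most protein-gene UMIs. mt-Cytb, the cytochrome b subunit of complex III, had 19770 UMIs in WT and 13431 in Irx3/5dHet. At 4616 CPM (4552 to 4681) and 4673 CPM (4594 to 4753) its levels overlapped, with a log2 ratio of 0.02 (-0.01 to 0.05). The complex I subunits mt-Nd1, mt-Nd2 and mt-Nd4 sit in the membrane arm of the enzyme. mt-Nd1 was at 2775 CPM in WT and 3187 CPM in Irx3/5dHet, a log2 ratio of 0.20 (0.16 to 0.24). mt-Nd2 was at 1561 and 1720 CPM, a log2 ratio of 0.14 (0.09 to 0.19). These are small differences next to those of the genes that follow. mt-Nd4 was at 1633 and 1546 CPM, and was the 1 measured protein gene that was lower, with a log2 ratio of -0.08 (-0.13 to -0.02).

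mt-Co1, the catalytic core of cytochrome c oxidase, showed the largest upward ratio of the 24 with its own row alone. With the counts of nuclear copies added, as described further on, its log2 ratio was 0.76, under the 1.12 of mt-Nd6. It had 2103 UMIs (491 CPM, 470 to 513) in WT and 3712 UMIs (1292 CPM, 1250 to 1334) in Irx3/5dHet, although the second library was smaller. The log2 ratio was 1.40 (1.32 to 1.47). mt-Co1 made up 4.08% of protein-gene UMIs in WT and 9.16% in Irx3/5dHet. No small set of cells carried this: mt-Co1 was found in 1148 WT and 1118 Irx3/5dHet cells, and the 5 highest cells held 2.76% and 2.42% of its UMIs.

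The 2 overlapping genes near the end of the genome were also higher. mt-Nd5, a proton-pumping subunit of complex I, was at 899 CPM in WT and 1533 CPM in Irx3/5dHet, a log2 ratio of 0.77 (0.71 to 0.83). mt-Nd6, the only protein gene on the other strand, was at 66.1 CPM (283 UMIs) and 144 CPM (414 UMIs), a log2 ratio of 1.12 (0.90 to 1.35). The annotated ends of mt-Nd5 and mt-Nd6 overlap on opposite strands, and the sources used here do not say whether the counting used strand, so reads in the overlap cannot be told apart.

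mt-Rnr2, the large ribosomal RNA of the mitochondrial ribosome, was the gene with the most UMIs in WT. It had 29150 UMIs (6807 CPM, 6729 to 6885) in WT and 12839 (4467 CPM, 4390 to 4545) in Irx3/5dHet, a log2 ratio of -0.61 (-0.64 to -0.58). mt-Rnr1, the small ribosomal RNA, was at 578 CPM (556 to 602) and 420 CPM (397 to 445), a log2 ratio of -0.46 (-0.56 to -0.36). Both ribosomal RNAs were thus lower, mt-Rnr2 somewhat more so, and mt-Rnr2 held 92.2% and 91.4% of the ribosomal RNA UMIs. In 1 WT cell mt-Rnr2 reached 351 UMIs, which is 1.20% of its WT total.

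Compared per kilobase of annotated gene, the order of levels also differed. In WT mt-Rnr2 was highest at 4303 CPM per kb, followed by mt-Cytb at 4035 and mt-Nd1 at 2900. In Irx3/5dHet mt-Cytb was highest at 4085 CPM per kb, followed by mt-Nd1 at 3330 and mt-Rnr2 at 2824. mt-Co1 was at 318 and 836 CPM per kb, well under mt-Cytb in both. Drop-seq reads 1 end of each transcript, so counts are not expected to grow with length, and this scale serves only to set genes side by side.

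Counts on the transfer RNA genes were lower almost throughout. The tails that the beads capture were described above for messenger and ribosomal RNAs. These counts are therefore not read as levels of the transfer RNAs themselves, and which RNAs they came from was not tested. The transfer RNA genes summed to 1378 UMIs (322 CPM) in WT and 357 UMIs (124 CPM) in Irx3/5dHet. Of the 15 with at least 10 UMIs, 14 were lower and 13 by a log2 ratio of at least 0.5, beside 26.0% of all genes. mt-Te, for glutamate, was the exception, with 22 and 20 UMIs and a log2 ratio of 0.44 (-0.51 to 1.38), an interval that holds 0. Intervals also held 0 for mt-Tw, mt-Ty and mt-Tf. mt-Tn had a single UMI, in WT.

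The transfer RNA gene with the most UMIs was mt-Tm, for methionine, which lies just before mt-Nd2. It had 328 UMIs (76.6 CPM, 68.5 to 85.3) in WT and 83 UMIs (28.9 CPM, 23.0 to 35.8) in Irx3/5dHet, a log2 ratio of -1.41 (-1.77 to -1.06). mt-Tp, for proline, had 191 and 65 UMIs, a log2 ratio of -0.98 (-1.41 to -0.57). mt-Tc, for cysteine, had 169 UMIs (39.5 CPM) and 18 UMIs (6.26 CPM), a log2 ratio of -2.66 (-3.44 to -1.95). The lowest ratio was that of mt-Ts2, with 33 and 2 UMIs (-3.47, -6.57 to -1.50). The log2 ratios of mt-Ta, mt-Tf, mt-Ti, mt-Tl1, mt-Tl2, mt-Tq, mt-Tt and mt-Tv lay between -2.42 and -1.38, and those of mt-Tw and mt-Ty were -0.54 (-1.30 to 0.18) and -0.38 (-1.04 to 0.26). The wild type UMIs of the transfer RNA genes were spread over many cells: the 1378 lay in 852 WT cells, with at most 13 in 1 cell.

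Genes on both strands were lower. The 9 transfer RNA genes on the + strand summed to 180 and 66.5 CPM, a log2 ratio of -1.44 (-1.68 to -1.21), and the 7 on the - strand to 142 and 57.8 CPM, a log2 ratio of -1.29 (-1.55 to -1.04). These intervals overlap. The sequences of mt-Tm and mt-Tc, the most counted transfer RNA gene and one with a low ratio on many UMIs, are given to show how short the genes behind these counts are. They were taken from the GENCODE M21 transcripts of build GRCm38 (mm10), mt-Tm at chrM:3845-3913 on the + strand and mt-Tc at chrM:5192-5257 on the - strand.
mt-Tm: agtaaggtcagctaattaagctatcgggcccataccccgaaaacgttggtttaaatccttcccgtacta
mt-Tc: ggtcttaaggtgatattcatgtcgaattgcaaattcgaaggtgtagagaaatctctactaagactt

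Several members are nearly silent in the tables, and most of these lie together in the genome. The exceptions are mt-Tn (chrM:5089-5159), given above, and mt-Th (chrM:11546-11612), which had no row and lies beyond mt-Nd4. mt-Co2, the copper-binding subunit of cytochrome c oxidase, had 1 UMI in each library. mt-Atp6, a subunit of the ATP synthase, had 3 and 1. mt-Co3, another core subunit of the oxidase, had 9 UMIs in WT (2.10 CPM, 0.961 to 3.99) and 0 in Irx3/5dHet (up to 1.28 CPM). These intervals overlap. No row was found for mt-Atp8, mt-Nd3, mt-Nd4l and 6 transfer RNA genes. Other protein genes of the same genome, such as mt-Cytb and mt-Nd2, had 4943 or more UMIs in the same libraries. The annotated mt-Atp8 overlaps mt-Atp6, and mt-Nd4l overlaps mt-Nd4, so reads in those stretches could belong to either gene.

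Nuclear copies of mitochondrial sequence match parts of that stretch. Aligning the 37 genes to all other annotated transcripts gave 17 annotated pseudogenes, matching 11 of the genes over at least 50 bases at 90% identity or more. Of these, 7 stand in a row on chromosome 1, at chr1:24611535-24616197 in build mm10, with at least 99.7% identity. Their matches lie within chrM:6390-11042, with gaps between them. Within that span 11 mitochondrial genes lie whole, including 8 of the 9 with no row. Of the genes with no row, only mt-Nd3 and mt-Nd4l matched an annotated copy. Only annotated transcripts were searched, so the nuclear sequence between these pseudogenes was not. Whether mt-Atp8 and the transfer RNA genes have copies there cannot be told from this search. The 3 genes of the span with a row held 13 UMIs in WT and 2 in Irx3/5dHet. A read that lies in an identical stretch matches both places, and the sources used here do not say how such reads were counted; its part in these low counts was not tested.

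The ends of the alignments show how far the copies can be told apart, since the assay reads 3′ ends. They come from the same GENCODE M21 transcripts, are written 5′ to 3′ in the gene's sense, and cover the last 60 aligned bases; capitals mark the positions at which a gene and its copy differ. mt-Co2 (chrM:7634-7693, + strand) and its chromosome 1 copy Gm28661 (chr1:24614885-24614944, - strand) are the same over these bases and over all 681 aligned ones. The end of mt-Co1 (chrM:6813-6872, + strand) is also the same in the chromosome 1 copy Gm29216, and differs from Gm13340 on chromosome 2 (chr2:22588103-22588162, - strand) at 1 of the 60. mt-Cytb (chrM:15228-15287, + strand) differs from Gm11410 on chromosome 4 (chr4:80005072-80005131, + strand) at 5.
mt-Co2: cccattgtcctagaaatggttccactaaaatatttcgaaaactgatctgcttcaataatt
Gm28661: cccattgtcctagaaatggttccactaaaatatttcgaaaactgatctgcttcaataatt
mt-Co1: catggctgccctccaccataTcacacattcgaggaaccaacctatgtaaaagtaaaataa
Gm13340: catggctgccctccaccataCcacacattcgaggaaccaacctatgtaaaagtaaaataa
mt-Cytb: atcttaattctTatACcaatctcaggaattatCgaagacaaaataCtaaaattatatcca
Gm11410: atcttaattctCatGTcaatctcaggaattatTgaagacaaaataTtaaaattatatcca

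The copies themselves held counts, and most were lower in Irx3/5dHet. All copies summed to 3528 UMIs (824 CPM) in WT and 1211 UMIs (421 CPM) in Irx3/5dHet, a log2 ratio of -0.97. Gm13340, which matches the whole of mt-Co1 at 97.6% identity, had 1328 and 292 UMIs, a log2 ratio of -1.61 (-1.80 to -1.43). Gm13341, which matches mt-Co2 at 95.9%, had 1155 and 353, a log2 ratio of -1.13 (-1.31 to -0.96). Gm28438, which matches mt-Nd3 with 1 mismatch in 345 bases, went the other way with 384 and 395 UMIs, a log2 ratio of 0.62 (0.41 to 0.82).

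The 3 copies of mt-Co1 were lower in Irx3/5dHet, while mt-Co1 itself was higher. With its 3 copies added, mt-Co1 came to 830 CPM in WT and 1404 CPM in Irx3/5dHet, and the log2 ratio of 1.40 became 0.76 (0.69 to 0.82). For mt-Nd5 the ratio with copies was 0.73 (0.67 to 0.80), for mt-Nd6 1.12 (0.90 to 1.34) and for mt-Cytb 0.01 (-0.02 to 0.04). Adding copies thus moved mt-Co1 far more than the other 3 genes, and its sum was still higher in Irx3/5dHet. Reads left out of the tables because they match several places would be in neither sum. Gm29216, which is the same as mt-Co1 at its end, held only 31 and 4 UMIs. These sums therefore do not settle the level of mt-Co1. Whether reads were divided differently between genes and copies in the 2 libraries was not tested.

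Shares differed more between cell types than between libraries. Leaving cluster 6 aside, neuron-like cells had a pooled mitochondrial share of 1.59% (1.57 to 1.61) in WT and 1.61% (1.60 to 1.63) in Irx3/5dHet. Oligodendrocyte precursor-like cells were lowest in both, at 1.26% and 1.23%. Cluster 2 was at 2.39% and 2.19%. Oligodendrocyte-like, ependymal-like and microglia or macrophage-like cells lay between 1.32% and 1.82%. Fibroblast-like, mural-like, endothelial-like, pars tuberalis-like and epithelial-like cells lay between 1.77% and 2.91%. The tanycyte-like cluster, with markers of the glia that line the floor of the ventricle, stood higher, at 3.92% in WT and 3.31% in Irx3/5dHet. Its median depth was also high, at 2335 and 1527 UMIs per cell, so low depth did not accompany the high share there. Cluster 2, with 367 cells beside 133 in the tanycyte-like cluster, also passed 10 tanycyte markers. Values given for tanycyte-like cells are thus not those of all cells with such markers.

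**Figure D2:**
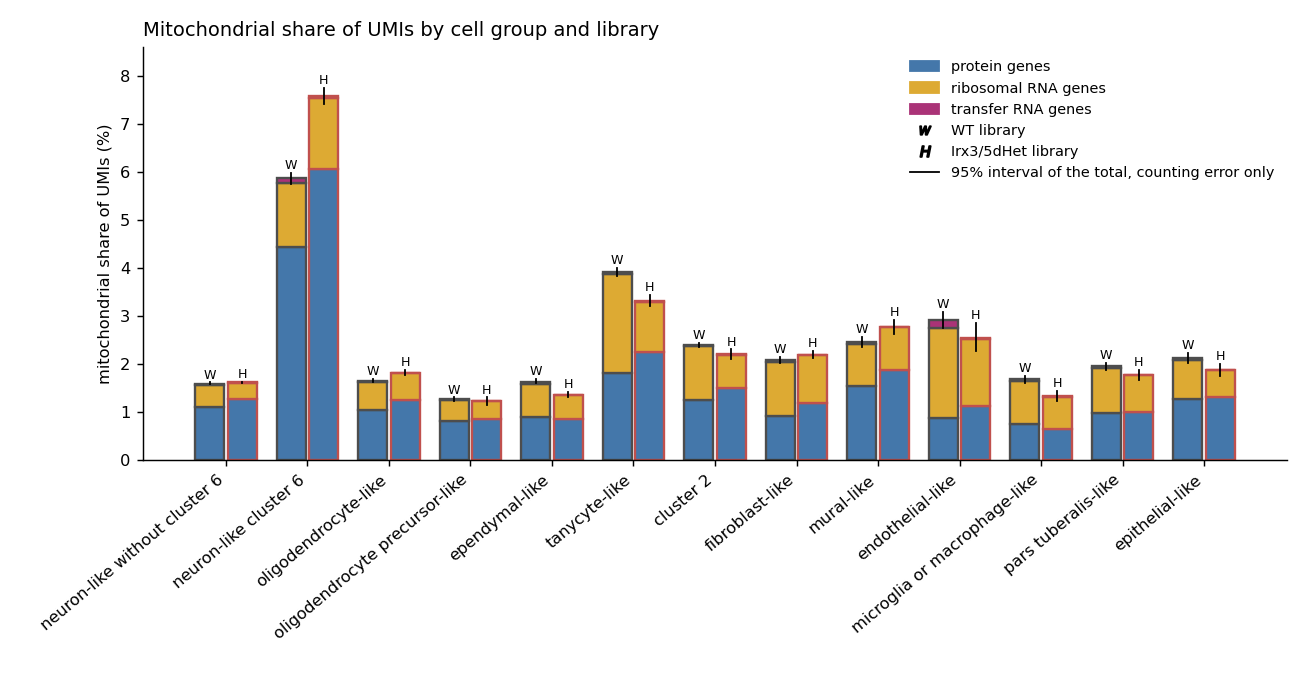
Mitochondrial share of UMIs in 13 cell groups, split into protein, ribosomal RNA and transfer RNA genes, with W for the WT and H for the Irx3/5dHet library. Bars are pooled shares over the cells of a group and lines the exact 95% intervals of the totals for counting error. Neuron-like cluster 6 and the tanycyte-like cluster stand above the other groups in both libraries, and the ribosomal RNA part is largest in the WT bar of the tanycyte-like cluster, at 2.08%.

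The balance of ribosomal RNA to messenger RNA also separated cell types. Neuron-like cells outside cluster 6 had 0.417 ribosomal RNA UMIs per protein-gene UMI in WT and 0.260 in Irx3/5dHet. Endothelial-like cells, with only 40 and 13 cells, had 2.15 and 1.28. Fibroblast-like cells had 1.23 and 0.826, microglia or macrophage-like cells 1.22 and 1.01, and tanycyte-like cells 1.16 and 0.467. Every group of other cells had more mitochondrial ribosomal RNA per protein-gene UMI than neuron-like cells in the same library, the nearest being oligodendrocyte precursor-like cells in WT (0.556) and epithelial-like cells in Irx3/5dHet (0.427).

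Within the protein genes, the balance of mt-Nd1 to mt-Cytb differed between cell types; the groups given here were picked after the values were seen. Per mt-Cytb UMI, there were 0.749 and 0.755 mt-Nd1 UMIs in neuron-like cells outside cluster 6, and 0.637 and 0.642 in oligodendrocyte-like cells. Ependymal-like cells, which bear the cilia that move cerebrospinal fluid, had 0.284 and 0.309, and cluster 2 had 0.353 and 0.364. The order of these 4 groups was the same in both libraries. Microglia or macrophage-like cells did not keep their place, with 0.658 in WT and 1.04 in Irx3/5dHet, the second from 78 mt-Cytb UMIs.

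In 4 classes each library had at least 100 cells, and there the libraries were compared directly. Neuron-like cells (820 WT and 722 Irx3/5dHet) had a log2 ratio of the mitochondrial share of -0.02 (-0.04 to 0.00), and without cluster 6 of 0.02 (0.00 to 0.05). Single neuron-like clusters lay on both sides of this value, and the libraries filled them unequally. The ratio was 0.11 (0.07 to 0.15) in cluster 0 (362 WT and 350 Irx3/5dHet cells), 0.16 in cluster 7 (75 and 132), 0.25 in cluster 15 (13 and 43) and -0.18 in cluster 8 (130 and 68). Oligodendrocyte-like cells (264 and 126) were at 1.64% and 1.82%, a log2 ratio of 0.14 (0.08 to 0.20). Ependymal-like cells (195 and 116) were at 1.63% and 1.36%, a log2 ratio of -0.27 (-0.34 to -0.19). Fibroblast-like cells (156 and 123) were at 2.07% and 2.19%, a log2 ratio of 0.08 (0.01 to 0.15). These ratios are small, and the classes lay on both sides of 0.

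Higher mt-Co1 and lower transfer RNA gene counts were seen across cell types, and lower ribosomal RNA in most of them. The mt-Co1 values here are of its own row alone, since sums with nuclear copies were made over all cells only. Over 13 groups that share no cells, including those with under 100 cells in a library, mt-Co1 was higher in Irx3/5dHet in 13 of 13, with an interval above 0 in 12. Its log2 ratio ran from 0.77 (0.10 to 1.43) in microglia or macrophage-like cells to 1.90 (1.48 to 2.34) in fibroblast-like cells. In neuron-like cells outside cluster 6, mt-Co1 was at 355 CPM in WT and 1073 CPM in Irx3/5dHet, a log2 ratio of 1.60 (1.47 to 1.73). In the 6 neuron-like clusters other than 6 it made up 2.87% to 3.64% of protein-gene UMIs in WT and 7.90% to 9.60% in Irx3/5dHet. All groups and clusters come from the same 2 libraries, so a direction they share is no replicate check. How many other genes kept 1 direction over the groups was not counted.

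Transfer RNA genes summed were lower in 13 of 13 groups, with an interval below 0 in 12. Their log2 ratio ran from -3.06 in epithelial-like cells to -0.29 in microglia or macrophage-like cells, on few UMIs in both. Ribosomal RNAs were lower in 11 groups, with an interval below 0 in 10, level in mural-like cells (0.00, -0.18 to 0.17) and higher in neuron-like cluster 6 (0.14, 0.04 to 0.24). Their ratio was lowest in tanycyte-like cells, with 2.08% of UMIs in WT and 1.05% in Irx3/5dHet, a log2 ratio of -0.99 (-1.09 to -0.89). Protein genes summed were higher in 11 groups, with an interval above 0 in 8. They were lower in ependymal-like (-0.09, -0.18 to 0.00) and microglia or macrophage-like cells (-0.20, -0.39 to -0.01).

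**Figure D3:**
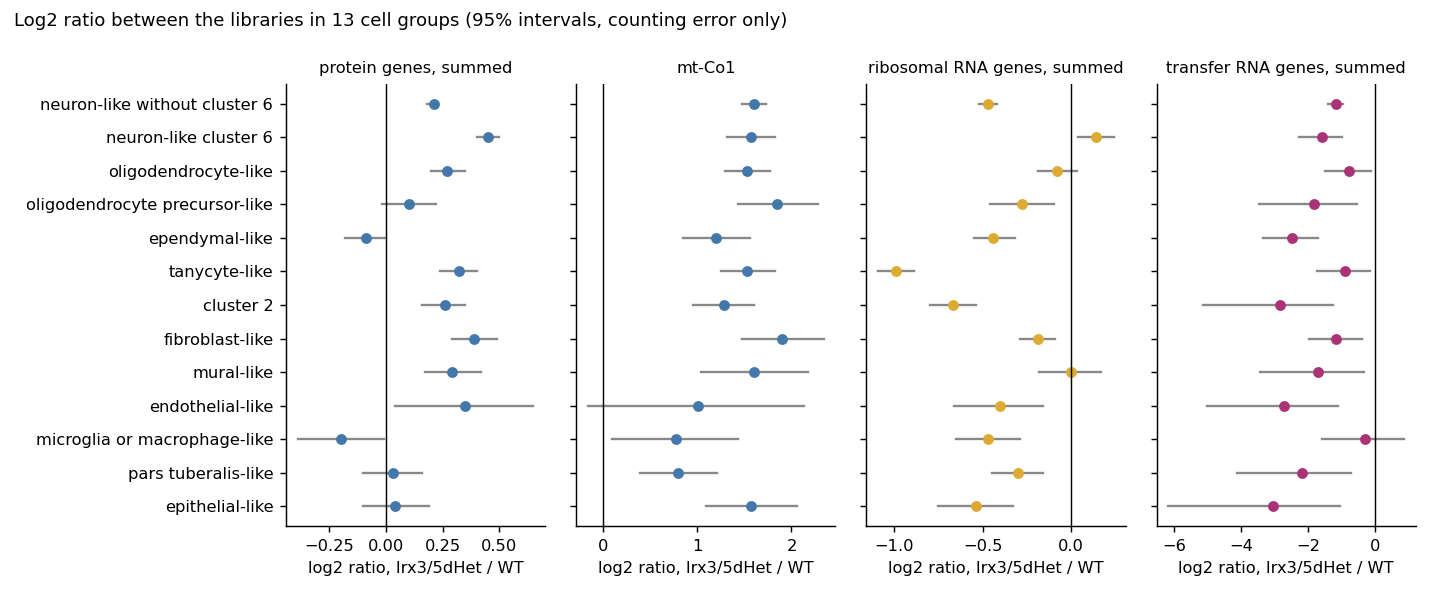
Log2 ratio of Irx3/5dHet over WT in 13 cell groups that share no cells, for protein genes summed, mt-Co1, ribosomal RNA genes summed and transfer RNA genes summed, with exact 95% intervals for counting error. Each panel has its own axis range. Points for mt-Co1 lie right of 0 in all 13 groups and those for transfer RNA genes left of 0 in all 13.

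Of the 4 compared classes, ependymal-like cells had the lowest ratio of transfer RNA genes. These genes were at 499 CPM in WT and 89.5 CPM in Irx3/5dHet, a log2 ratio of -2.48 (-3.35 to -1.71). mt-Tc accounted for part of it, with 49 UMIs (156 CPM) in WT and 0 in Irx3/5dHet, where a floor of 3 counts is 17.9 CPM. Those 49 UMIs lay in 27 of 195 cells, and 1 cell held 10 of them. In endothelial-like cells, where WT transfer RNA genes reached 1718 CPM, 11 of the 63 UMIs lay in 1 cell and the 5 highest cells held 52.4%, so that value rests on few cells.

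mt-Nd5 and mt-Nd6 were less even than mt-Co1. mt-Nd5 was higher in 11 of 13 groups, with an interval above 0 in 6, from -0.25 (-0.73 to 0.22) in pars tuberalis-like cells to 1.43 (0.98 to 1.88) in fibroblast-like cells. In epithelial-like cells it was at 1019 and 1018 CPM. mt-Nd6 was higher in 10 groups and lower in 3, down to -0.80 (-3.32 to 1.21) in mural-like cells. Its interval was above 0 in 4 groups, 1 of them fibroblast-like cells with only 2 and 14 UMIs. In neuron-like cells it was at 58.0 and 137 CPM outside cluster 6 and at 263 and 758 CPM within it. mt-Cytb had a ratio above 0 in 9 groups and below in 4, and stood lowest in microglia or macrophage-like cells (-0.81, -1.19 to -0.44).

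Most cells with an extreme mitochondrial share belonged to 1 cluster. Neuron-like cluster 6 held 155 WT and 79 Irx3/5dHet cells, with medians of 696 and 648 UMIs, and passed 12 neuron markers. Its pooled mitochondrial share was 5.86% (5.74 to 5.98) in WT and 7.58% (7.41 to 7.75) in Irx3/5dHet. The median cell had 6.75% and 10.9%, and the highest 17.4% and 32.2%. Over all cells the medians were 1.68% and 1.62%, so these cells stand well apart from the rest. They are described apart from the other neuron-like cells by a choice made after their shares had been seen. Genes with names starting with mt- were left out of the genes that formed the clusters, while their nuclear copies could be among them. Whether copies helped to form cluster 6 was not tested.

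**Figure D4:**
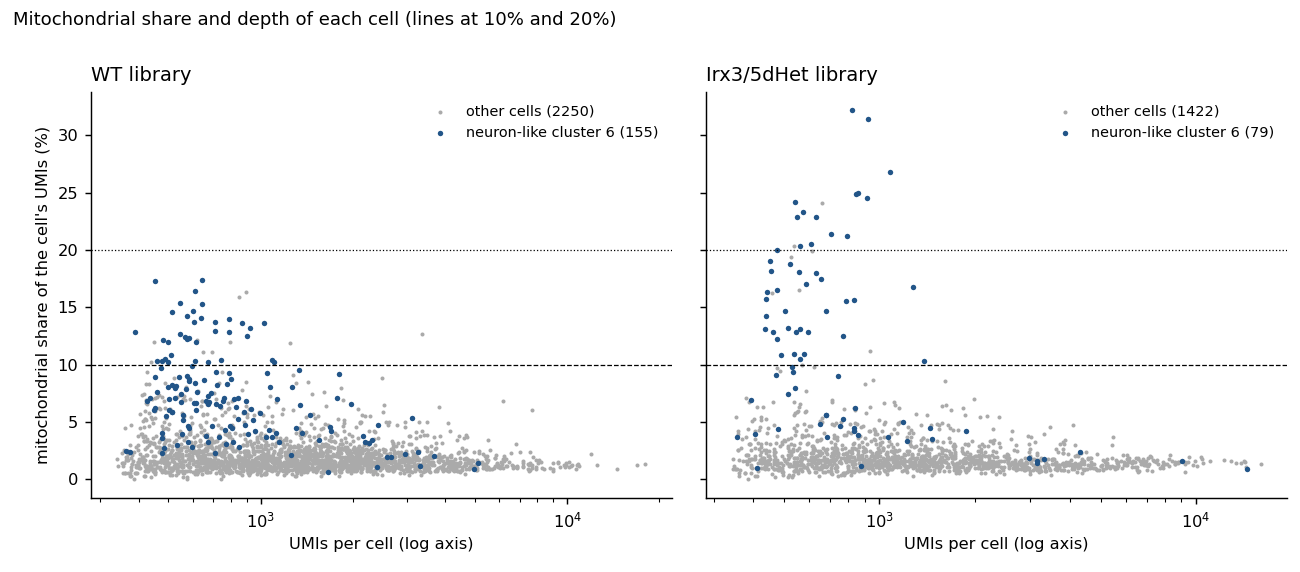
Mitochondrial share of each cell's UMIs against its number of UMIs on a log axis, in the WT and Irx3/5dHet libraries, with neuron-like cluster 6 in blue and lines at 10% and 20%. The cells above 10% lie mostly in cluster 6 and nearly all under 2000 UMIs in both libraries, and only the Irx3/5dHet library has cells above 20%.

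Cells over 10% mitochondrial UMIs numbered 46 in WT (1.91%, 1.40 to 2.54) and 51 in Irx3/5dHet (3.40%, 2.54 to 4.44), and 36 and 44 of them were in cluster 6. Cells over 20% numbered 0 in WT, which allows a share of up to 0.125% by the rule of 3 counts and of 0.153% by the exact interval, and 17 in Irx3/5dHet (1.13%, 0.661 to 1.81), of which 15 were in cluster 6. With each cell of at least 500 UMIs thinned to 500, which left out 241 WT and 165 Irx3/5dHet cells, 0 of 2164 and 16 of 1336 cells were over 20%. Outside cluster 6, the share of cells over 10% was 0.444% in WT and 0.492% in Irx3/5dHet, and the intervals of these shares overlap.

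Other RNAs of cluster 6 also set it apart. Its leading genes included Snhg11 and Meg3, long non-coding RNAs on the list of nuclear-retained RNAs. That list of 9 RNAs took 10.3% of its non-mitochondrial UMIs in WT and 6.56% in Irx3/5dHet, beside 1.75% and 1.54% in the other neuron-like cells. Nuclear genes of oxidative phosphorylation took 1.19% and 2.41%, beside 3.85% and 4.34%. High mitochondrial share, high nuclear-retained RNA and low depth were thus all found in these cells. The cluster is the neuron-like one of lowest median UMIs and was set apart after its shares were seen. Nuclear-retained RNAs other than Xist could be among the genes that formed the clusters, and Snhg11 is also a neuron marker. That these traits come together is therefore not an independent result, and what they reflect was not tested. mt-Co1 and the transfer RNA genes were shifted here as elsewhere, with log2 ratios of 1.57 (1.32 to 1.83) and -1.59 (-2.26 to -0.98).

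A mitochondrial limit removes cells of this cluster unequally. Cluster 6 was 6.44% of WT and 5.26% of Irx3/5dHet cells without a limit, 5.04% and 2.41% of those at or under 10%, and 2.38% and 1.73% of those at or under 5%. Neuron-like cells as a whole went from 34.1% to 33.1% and 31.3% in WT, and from 48.1% to 46.3% and 45.5% in Irx3/5dHet. A limit of 5% also took tanycyte-like cells from 3.41% to 2.89% in WT and from 3.40% to 3.03% in Irx3/5dHet. In the authors' merged table the highest share of a cell was 9.90% in WT and 9.88% in Irx3/5dHet. It left out 48 WT and 54 Irx3/5dHet cells with at least 300 genes, and 46 and 52 of these had a share of 10% or more.

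Shares were higher in shallow cells. In WT the pooled share was 3.07% in cells under 500 UMIs, 3.02% from 500 to under 1000, 2.08% from 1000 to under 2000, 1.86% from 2000 to under 4000 and 1.48% at 4000 or more. In Irx3/5dHet the same bins had 3.39%, 3.42%, 2.13%, 1.61% and 1.42%. Without cluster 6 the first bin was at 2.62% and 2.37%, so part of the slope lies in that cluster. The slope was not seen in all cell types: over single cells, which share their library and have the same UMIs in the share and in the depth, the Spearman correlation of share and UMIs was -0.24 and -0.32 in neuron-like cells outside cluster 6 and -0.01 and 0.00 in ependymal-like cells.

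**Figure D5:**
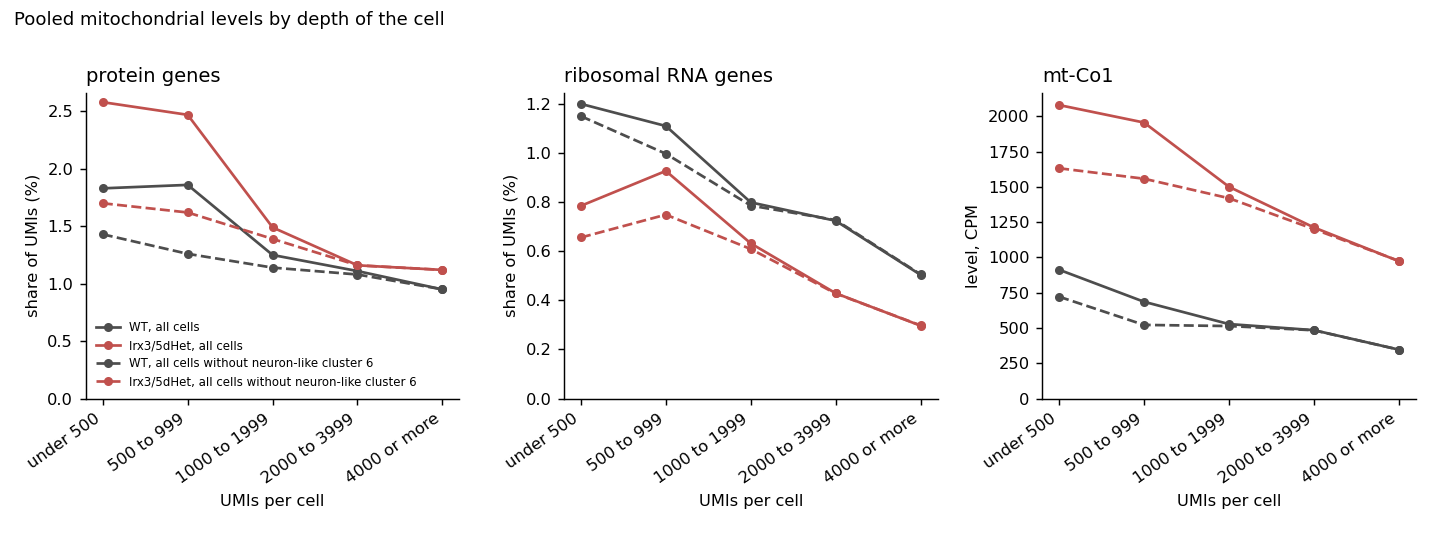
Pooled share of UMIs of protein genes and of ribosomal RNA genes, and level of mt-Co1 in CPM, in 5 bins of UMIs per cell, for the WT and Irx3/5dHet libraries with all cells (solid) and without neuron-like cluster 6 (dashed). All 3 measures are higher in the bins under 1000 UMIs than in the deepest bin, and in every bin of these sums over cell types mt-Co1 and the protein genes are higher and ribosomal RNA lower in the Irx3/5dHet library.

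Summed over cell types, the difference in make-up had the same sign at every depth. mt-Co1 was at 913 CPM in WT and 2080 CPM in Irx3/5dHet in cells under 500 UMIs, and at 347 and 974 CPM in cells with 4000 or more. Ribosomal RNAs took 1.20% of UMIs in WT and 0.785% in Irx3/5dHet in the first bin, and 0.504% and 0.297% in the last. Transfer RNA genes were at 447 and 241 CPM in the first bin and at 224 and 106 CPM in the last. Protein genes took 1.83% and 2.58% in the first and 0.950% and 1.12% in the last. Within neuron-like cells this held in all 5 bins for mt-Co1 and transfer RNA genes, but not for the other measures. Ribosomal RNAs took 1.21% of neuron-like UMIs in WT and 1.23% in Irx3/5dHet from 500 to under 1000 UMIs. Protein genes took 1.94% and 1.92% from 1000 to under 2000 UMIs, and 1.15% in both libraries from 2000 to under 4000.

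The respiratory chain is built from mitochondrial and nuclear products, so its nuclear genes are given beside these. Of 80 nuclear genes of oxidative phosphorylation with at least 10 UMIs, 75 were higher in Irx3/5dHet and 5 lower, around a median log2 ratio of 0.27, beside 43.5% of all genes higher and a median of -0.08. Only 8 reached 0.5 upward, beside the 12.7% of all genes given above, and 0 reached it downward. In neuron-like cells outside cluster 6, 67 of 79 were higher, with a median of 0.15, beside 44.9% of all genes higher and a median of -0.04. The list as a whole took 29275 CPM in WT and 36076 CPM in Irx3/5dHet, a log2 ratio of 0.30, beside 0.23 for the mitochondrial protein genes. The classes differed. In oligodendrocyte-like cells 42 of 77 nuclear genes were higher, beside 48.0% of all genes. Their sum was level (-0.01, -0.06 to 0.04), while the mitochondrial protein genes were at 0.27. In ependymal-like cells the nuclear sum was at 0.18 (0.12 to 0.24) and the mitochondrial protein genes at -0.09 (-0.18 to 0.00). In fibroblast-like cells the nuclear sum was at 0.19 and the mitochondrial protein genes at 0.39.

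Summed over all cells, each complex was higher, but not in every class. In oligodendrocyte-like cells the sums of complexes I, III and IV were at -0.05, -0.08 and -0.02, with intervals that held 0. Over all cells, 36 of 37 genes listed for complex I were higher, with Ndufa6 at 592 and 749 CPM, Ndufs5 at 181 and 327 CPM (log2 ratio 0.86) and Ndufv1 at 112 and 107 CPM. The list also holds Ndufa4 (740 and 977 CPM), which was named for complex I but is established as a subunit of cytochrome c oxidase. In complex II, which the nucleus encodes alone, all 4 were higher over all cells, none by 0.5, with a median of 0.14. Its sum was at 0.02 (-0.09 to 0.12) in neuron-like cells outside cluster 6. In complex III, 9 of 9 were higher, among them Uqcrh at 477 and 614 CPM. In complex IV, the partner of mt-Co1, 9 of 13 were higher and none by 0.5: Cox4i1 was at 1140 and 1337 CPM, Cox8a at 886 and 1179 CPM, and Cox6a1 was lower at 753 and 666 CPM. In the ATP synthase, 17 of 17 were higher, with Atpif1, its inhibitor, at 800 and 1134 CPM and Atp5g1, a subunit of its rotating ring, at 61.9 and 338 CPM (log2 ratio 2.45, 2.25 to 2.65).

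Nuclear genes that copy and read the mitochondrial genome were near all genes in their median. Of 28 genes for its replication, transcription and RNA handling, 11 lay above 0 and 17 below, around a median log2 ratio of -0.10 that compares with -0.08 for all genes. Slirp, which helps stabilise mitochondrial messenger RNAs, was at 242 and 291 CPM (0.27, 0.13 to 0.40). Elac2, which cuts the 3′ ends of transfer RNAs out of their precursors, had 56 and 21 UMIs (-0.84, -1.64 to -0.09). Trmt10c, part of the enzyme that cuts their 5′ ends, had 98 and 86 UMIs (0.39, -0.05 to 0.82). Of 9 genes that control mitochondrial biogenesis 5 were higher, with a median of 0.00, and of 12 genes of mitochondrial RNA decay and mitophagy 7 were higher, with a median of 0.10.

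Gene lists that can mark sample handling, among other things, also differed between the libraries. Handling itself was not measured, and the part of these lists in the mitochondrial differences was not tested. Of 21 immediate early genes, a class induced within minutes by neuronal activity and also by dissociation, 19 were lower in Irx3/5dHet, 15 of them by at least 0.5, beside 26.0% of all genes, and their median was -0.63, beside -0.08. Fos was at 1782 and 1065 CPM. All 3 measured haemoglobin genes, a mark of blood, were lower, with Hbb-bs at 165 and 48.4 CPM. Of 8 measured nuclear-retained RNAs, 4 lay above and 4 below 0 over all cells, around a median log2 ratio of -0.14, and the classes went both ways. All 8 were lower in neuron-like cells (sum -0.45, -0.47 to -0.43) and 7 of 8 outside cluster 6, while the sum was higher in oligodendrocyte-like cells (0.54, 0.48 to 0.61). Over all cells Malat1 was at 9378 and 7164 CPM, a log2 ratio of -0.39 (-0.41 to -0.36).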

How the data were processed

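Counts are UMIs per gene and barcode in the deposited raw tables, 1 per library. Per the submitters' processing notes, STAR 2.6.0b, Picard, bcl2fastq and Seurat 3 were used with build mm10. For the annotation, the strand setting and reads with several matches, nothing is given in the sources used here. The authors' merged table, deposited as normalised natural log values, served only for its barcodes and mitochondrial rows.

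Barcodes with at least 300 genes were kept. Clustering (scanpy 1.11.5, leidenalg 0.10.2) used 2000 variable genes without mitochondrial, ribosomal protein and haemoglobin genes, 30 components, 20 neighbours and resolution 1. Scrublet marked 16 of 3906 cells (0.410%), too few for the caller to have worked, and all were kept. Copies were found with blastn 2.17.0 among GENCODE M21 transcripts. Python 3.11.15, scipy 1.17.1 and edgeR 4.0.16 (TMM factors only) were used, and scripts were tested on simulated data.

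With 1 library per genotype no test was made. Shares have Clopper-Pearson, CPM Poisson and ratios conditional binomial intervals. Genes with at least 10 UMIs entered counts, and a log2 ratio of 0.5 was the limit for a called difference. Of each nuclear list, the 2 members with most UMIs and the 2 extreme ratios were eligible for naming, the latter with at least 50 UMIs. Members and lists were chosen with earlier results of these data known. The rules that named clusters, left cluster 2 unnamed and set cluster 6 apart, and the alignment-defined copies, were also chosen after seeing the data. Alternatives covered cell filters, mitochondrial limits, scaling, depth, doublets, classes and copies.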

Additional observations from a re-analysis of the deposited data

Results flagged for a closer look

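Where both libraries had at least 100 cells of a class, the log2 ratio of the mitochondrial share lay on opposite sides of 0: oligodendrocyte-like cells were at 0.14 and fibroblast-like cells at 0.08, while ependymal-like cells were at -0.27. With 1 library per genotype, the difference between classes was not tested.

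Barcodes with fewer than 300 genes, which entered no comparison, held a larger mitochondrial share than the cells analysed. It was 4.34% (4.24 to 4.45) over 394 barcodes in WT and 6.24% (6.09 to 6.39) over 298 in Irx3/5dHet. Of their mitochondrial UMIs, ribosomal RNAs made up 46.3% and 22.2% and protein genes 52.6% and 77.5%, so the make-up differed between libraries in the same direction as in the analysed cells.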

How the results depend on the processing

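Over 183 recomputed values, 104 stayed within counting error or 1.5 times the reported count, 69 moved beyond it and 10 changed sign; for those that moved, the cause was not tested. The ratio of the mitochondrial share over all cells (-0.05) was -0.10 with at least 500 genes, 0.00 with all barcodes, -0.12 at or under 20% and -0.14 under 10% mitochondrial UMIs, -0.13 with the merged table's barcodes, 0.10 as a mean over cells, 0.02 by size factors, 0.01 by TMM, -0.13 with at least 1000 UMIs, 0.06 with depth bins weighted equally, -0.09 without cluster 6 and -0.08 with copies. In the same order up to the depth bins, protein genes (0.23) were at 0.17, 0.30, 0.15, 0.13, 0.14, 0.36, 0.30, 0.28, 0.15 and 0.34. Ribosomal RNAs (-0.60) were at -0.65 with at least 500 genes, -0.65 at or under 20%, -0.66 under 10%, -0.66 with the merged barcodes, -0.39 as a mean over cells, -0.52 by size factors, -0.54 by TMM, -0.70 with at least 1000 UMIs, -0.50 with equal depth bins and -0.65 without cluster 6. Neuron-like cells (-0.02) were at -0.07 with at least 500 genes, -0.13 at or under 20%, -0.14 under 10%, -0.14 with the merged barcodes, 0.11 as a mean over cells, 0.02 by size factors, 0.06 by TMM, -0.08 with at least 1000 UMIs, 0.19 with equal depth bins, 0.02 without cluster 6 and -0.05 with copies. As a mean over cells and with equal depth bins, oligodendrocyte-like cells (0.14) were at 0.02 and 0.01 and ependymal-like cells (-0.27) at -0.36 and -0.41. Fibroblast-like cells (0.08) were at 0.15 with at least 500 genes, 0.01 as a mean over cells and 0.20 with at least 1000 UMIs. Over 13 alternatives each, transfer RNAs ran from -1.46 to -1.30, mt-Co1 from 1.36 to 1.47 and mt-Nd6 from 1.01 to 1.23. All of these stayed within counting error. The other single genes moved more often: mt-Nd5 ran from 0.64 to 0.91, with 9 of 13 moved. mt-Rnr2 ran from -0.70 to -0.42 and mt-Cytb from -0.06 to 0.15, with 10 of 13 moved in each. Adding nuclear copies to single genes was computed apart from these and gave the mt-Co1 ratio of 0.76 in the results. Counts of genes ran from 7 to 8 higher and from 14 to 20 lower. No paired analysis was possible because each genotype is 1 pooled library, and for the same reason no replicate could be left out. With under 10 UMIs, mt-Co2, mt-Co3, mt-Atp6 and mt-Tn allow no ratio of use, and few UMIs also limit transfer RNAs in small groups.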

Other observations

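Over the 19 clusters, both libraries pooled, the nuclear genes whose level among non-mitochondrial UMIs ran most with the mitochondrial share were named by rank correlation, among 1431 genes with at least 1000 UMIs. Gm13341, the nuclear copy of mt-Co2, was highest with a Spearman correlation of 0.82. Kif5b, a motor that carries cargo along microtubules, followed at 0.71, Ncor1, a transcriptional corepressor, at 0.71, Luc7l2 at 0.70 and Rbbp6 at 0.69. The lowest were Cct2, a chaperonin subunit, at -0.84, Os9 at -0.79, Ddx1 at -0.73, Ywhae at -0.71 and Psmb4, a proteasome subunit, at -0.71. The clusters differ in depth, cell type and the part each library has in them (278 WT and 89 Irx3/5dHet cells in cluster 2, 13 and 43 in cluster 15), and levels differ between libraries, and these genes were picked as the extremes, so the values are a description.

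Summed over their lists, nuclear genes of oxidative phosphorylation had a Spearman correlation with the mitochondrial share over clusters of -0.42, and of -0.34 without cluster 6. Immediate early genes summed were at 0.63, and at 0.81 without cluster 6.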
